A study of Bos taurus with 8 samples.

Results

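The comparison described here asks whether editing of RPL12 shifted transcript levels differently in bovine embryos of 4 cells and of 8 cells. It was measured in all 8 libraries of the series as the editing effect at the 8-cell stage minus the editing effect at the 4-cell stage, and it was tested for 12129 of the 16606 genes in the table, those with a mean of at least 1 CPM (reads per 1000000 reads) over the libraries. An editing effect is the mean of the edited libraries minus the mean of the control libraries on the log2(CPM + 1) scale, so that the difference between stages is positive where the edited embryos stood higher, relative to controls, at the 8-cell stage than at the 4-cell stage. The same number is also the change from 4 to 8 cells in edited embryos minus that change in controls.

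All embryos came from oocytes of abattoir ovaries that were matured and fertilised in vitro, with cryopreserved Holstein semen. Edited embryos had received PEmax and a guide RNA by injection into the cytoplasm of the zygote. PEmax is a prime editor, a Cas9 nickase joined to a reverse transcriptase that copies the wanted change from its guide RNA. The design text names the edit RPL12A148G, while the sample titles call the embryos base edited. The 4 groups of 2 libraries were 4-cell control, 4-cell edited, 8-cell control and 8-cell edited embryos, each library made from a pool of 5 embryos with SMART-Seq and Nextera XT chemistry. The labels do not say whether control zygotes were injected, how many alleles carried the edit, or whether cumulus cells were removed before lysis. The 4-cell samples are labelled as oocytes in their source name and as embryos in their titles, and the titles were followed. Nothing in the labels ties a library to a separate fertilisation, so p-values measure the spread between these pools.

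In the early embryo of cattle, development first runs on RNA stored in the oocyte. Maternal transcripts are translated and then removed, by deadenylases of the CCR4-NOT complex among others, while the embryonic genome is transcribed at a low level and then broadly from about the 8-cell stage. Cumulus and granulosa cells, the somatic cells that surround the oocyte in the follicle, add their own RNA wherever they are carried along. A pooled library does not tell fewer cells of a type from less RNA per cell.

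The libraries held 33527531 to 35122409 reads each, and replicates correlated at 0.971 to 0.978 (Pearson, across genes, log2 scale). RPL12 itself was lower in the edited libraries at both stages. Its 4-cell controls stood at 159 and 174 CPM and its 4-cell edited libraries at 27.5 and 33.6, whereas its 8-cell controls stood at 96.3 and 97.6 and its 8-cell edited libraries at 14.1 and 11.9. The editing effect on RPL12 was -2.41 at the 4-cell stage and -2.81 at the 8-cell stage. The difference between stages was -0.40, with a 95% interval from -1.13 to 0.34 and an adjusted p of 0.521 in limma.

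The editing effect differed between the stages for 480 genes in limma at an adjusted p under 0.05, which is 3.96% of the genes tested. The difference was positive for 237 of them (1.95% of the genes tested) and negative for 243 (2%). Most of these genes were called at the 4-cell stage and not at the 8-cell stage: 381 genes, or 79.4% of the 480. Among these, 218 stood higher in 4-cell edited embryos (1.8% of the genes tested), led by the oocyte-secreted protein gene OOSP2, and 163 stood lower (1.34%), led by cathepsin L, clusterin and the transcription elongation factor gene SUPT4H1. Changes limited by the same calls to the 8-cell stage were seen in 23 genes (4.79% of the 480), 11 genes were called in opposite directions at the 2 stages (2.29%), and 65 genes were lower at both stages by unequal amounts (13.5%).

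The absolute editing effect was larger at the 4-cell stage for 441 of the 480 genes and larger at the 8-cell stage for 39. These counts are a description, since the choice of genes by their difference favours the stage with the wider spread of effects. The estimated effects had opposite signs in 212 genes, of which 11 were called in opposite directions. Another 114 were in the class higher at the 4-cell stage only, with a median 8-cell effect of -0.03. A further 69 were in the class lower at the 4-cell stage only, with a median 8-cell effect of -0.13. The same counts for all genes tested are not given here. The differences ranged from -3.69 to 4.44, and 109 genes had a difference of at least 2 in size on the log2 scale. The gene just inside the threshold was CCP110, with a difference of -1.12 and an adjusted p of 0.0498 in limma, and the one just outside it was RIMKLA, with a difference of 1.44 and an adjusted p of 0.0504. Editing effects were called for 44.7% of all genes tested at the 4-cell stage (18.9% higher and 25.8% lower in edited embryos) and for 15.6% at the 8-cell stage (1.08% higher and 14.5% lower). Over all genes tested, the median difference between stages was -0.02, and the SD of the effects was 1.18 at the 4-cell stage and 0.835 at the 8-cell stage.

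**Figure D1:**
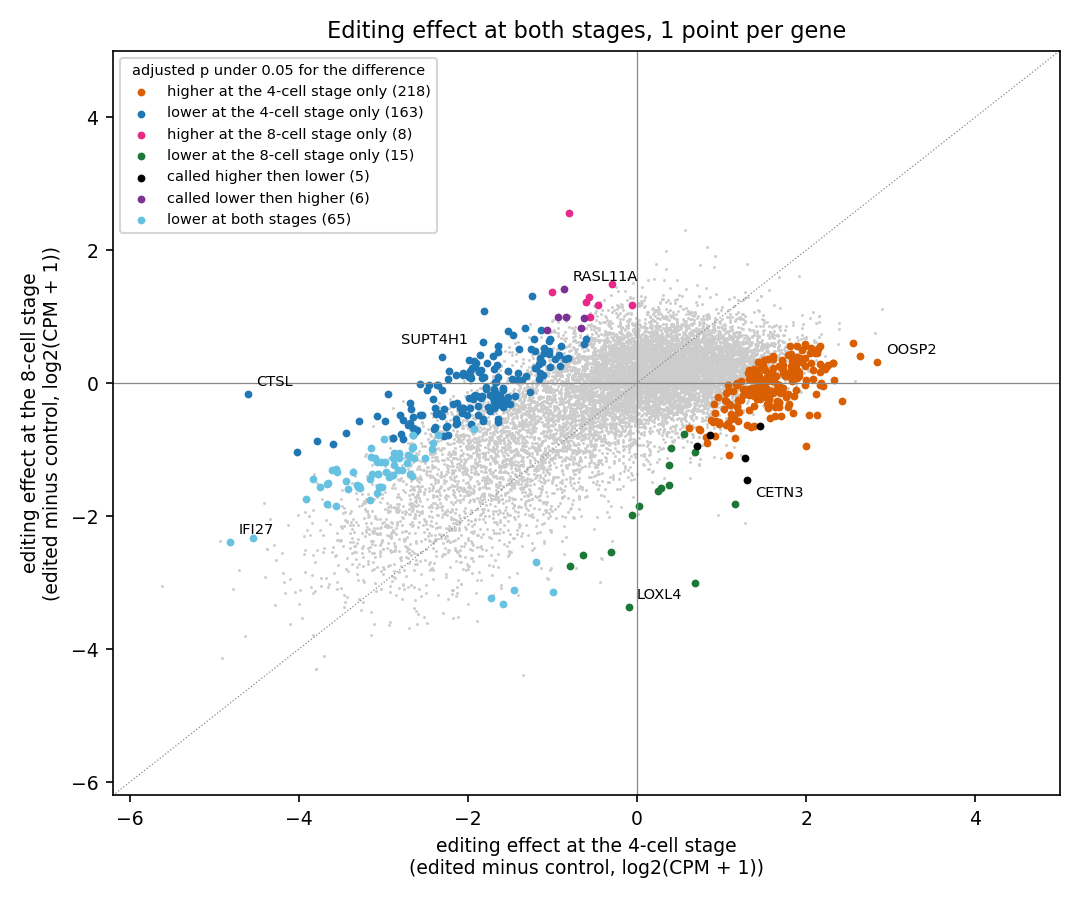
Editing effect (edited minus control, log2(CPM + 1)) at the 4-cell stage on the horizontal axis and at the 8-cell stage on the vertical axis, 1 point for each of the 12129 genes tested. Coloured points are the 480 genes with a called difference, by class, and the dotted line marks equal effects. The 218 orange and 163 blue points were called at the 4-cell stage only. The 8-cell effect was under 0.5 in size for 186 of the orange and 114 of the blue points.

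The number of called genes depended strongly on the test and on single libraries. The quasi-likelihood test of edgeR, run on the read counts recovered from the CPM, called 18 genes, of which 17 were among the 480. The genes named here that edgeR called all had the same adjusted p in that test, 0.0497, just under the threshold. Of the 480, 446 had an adjusted p under 0.1 in edgeR. DESeq2 called 1035 genes, 475 of them among the 480. In limma the count was 0 without 4-cell edited library 1 (2740 genes at an unadjusted p under 0.05) and 0 without 4-cell edited library 2 (2378 genes), against 2800 genes at an unadjusted p under 0.05 with all libraries. It was 81 without 4-cell control library 1 and 1397 without 4-cell control library 2. It was 13 and 29 without 8-cell edited library 1 or 2, and 16 and 601 without 8-cell control library 1 or 2. None of the 79 genes chosen by the naming rule reversed its direction under the alternatives that were run.

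**Figure D2:**
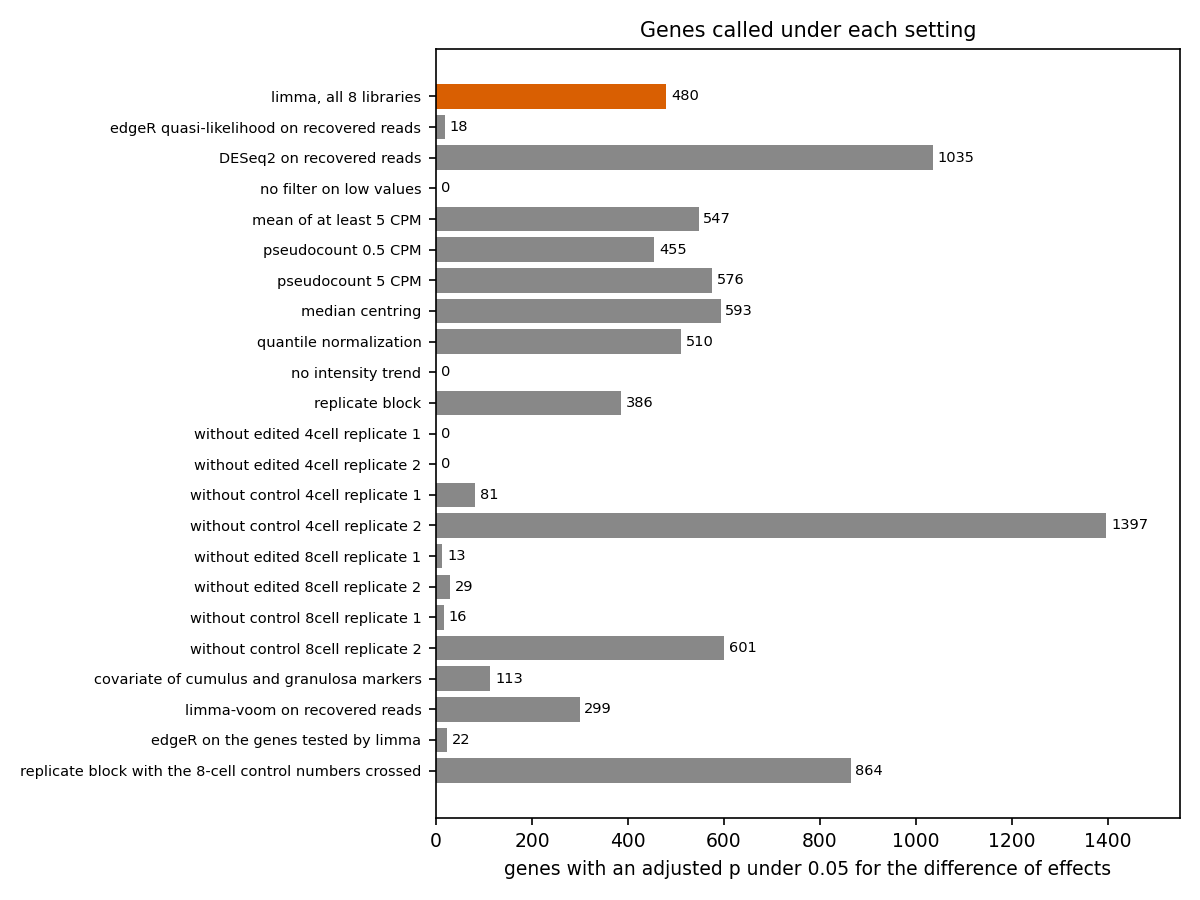
Number of genes with an adjusted p under 0.05 for the difference of effects (horizontal axis) under the reported fit, in orange, and under 22 alternatives, in grey. The count ran from 0 to 1397 around the reported 480.

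The 218 genes that were higher in edited embryos at the 4-cell stage only had a median editing effect of 1.56 at the 4-cell stage and of -0.03 at the 8-cell stage. In 201 of them the 4-cell controls were the lowest of the 4 groups, and in 199 both 8-cell means lay between the 4-cell means. The 4-cell libraries of the 2 conditions did not overlap in any of the 218, as in 71% of all genes tested, and the 8-cell libraries did not overlap in 104 of them, against 60.4% of all genes tested. The median change from 4 to 8 cells was 0.83 in controls and -0.77 in edited embryos, and 90 of the 218 were called higher at 8 cells in controls (against 2.75% of all genes tested), while 65 were called lower at 8 cells in edited embryos (against 3.73%). The choice of genes by their difference favours such opposite changes, and the counts are given as a description.

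OOSP2, whose protein is secreted by the oocyte, had the smallest p of this class. Its 4-cell controls held 674 and 1189 CPM and its 4-cell edited libraries 6669 and 6196, while its 8-cell controls held 2821 and 2242 and its 8-cell edited libraries 3263 and 3012. The groups were far apart at 4 cells and close at 8 cells, where the edited libraries still stood above both controls. The editing effect was 2.84 at the 4-cell stage and 0.32 at the 8-cell stage, a difference of -2.53 (SE 0.363, adjusted p = 0.00681 in limma and 0.0497 in edgeR).

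LUZP2, the gene of a leucine zipper protein, was at 8.23 and 10.3 CPM in 4-cell controls and at 52.7 and 54.5 in 4-cell edited libraries. At 8 cells its libraries overlapped in level, with 21.8 and 27.3 in controls and 18.1 and 22.1 in edited embryos. Its difference was -2.69 (adjusted p = 0.00989 in limma). CFAP210, a cilia and flagella associated protein gene, had a difference of -2.30 and CRYBG1 one of -2.15, both with an adjusted p of 0.011 in limma, and for both the 8-cell estimate was below 0 without passing the test there.

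Deadenylation was represented in this class by CNOT6L and CNOT6, catalytic subunits of CCR4-NOT that shorten poly(A) tails. CNOT6L stood at 52.5 and 102 CPM in 4-cell controls and at 338 and 318 in 4-cell edited libraries, then at 179 and 153 in 8-cell controls and 239 and 235 in 8-cell edited libraries. The gap was in the same direction at both stages and smaller at 8 cells, with effects of 2.14 and 0.51 and a difference of -1.63 (adjusted p = 0.0341 in limma). CNOT6 had effects of 1.87 and 0.32 and a difference of -1.54 (adjusted p = 0.0406).

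Cell division genes also appeared here. SPC25, a subunit of the NDC80 complex that holds microtubules at the kinetochore, stood at 59.5 and 58.5 CPM in 4-cell controls against 254 and 224 in 4-cell edited libraries. At the 8-cell stage its controls, at 127 and 107, and its edited libraries, at 139 and 105, overlapped. The difference was -1.95 (SE 0.323, adjusted p = 0.0121 in limma). CENPE, a kinetochore motor, had effects of 1.54 and -0.38, and CENPF, a large kinetochore protein, had effects of 1.41 and -0.12.

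Other genes of this class called by limma and edgeR alike were NADK2, a mitochondrial NAD kinase, ALDH1A1, a retinaldehyde dehydrogenase, and NUDT4, a diphosphoinositol phosphate hydrolase. NADK2 had a difference of -2.60, ALDH1A1 of -2.51 and NUDT4 of -2.02, each with an adjusted p of 0.0497 in edgeR. The values of NUDT4 are identical in every library to those of the entry LOC531462, so that reads of this pair cannot be told apart. Of the genes tested, 227 share all values with another entry.

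The 163 genes that were lower in edited embryos at the 4-cell stage only had a median editing effect of -1.85 at the 4-cell stage and of -0.13 at the 8-cell stage. In 149 of them the 4-cell controls were the highest of the 4 groups. In controls 86 of them were called lower at 8 than at 4 cells (6.27% of all genes tested were), and in edited embryos 40 were called higher (1.45% of all genes tested). Here too the choice of genes by their difference favours such a layout, and the counts are a description. The 4-cell libraries of the 2 conditions did not overlap in any of the 163, as in 71% of all genes tested, and for 114 of the 163 the 8-cell effect was under 0.5 in size.

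CTSL, the gene of the lysosomal protease cathepsin L, had the largest difference of all genes tested. Its 4-cell controls were at 35.6 and 25.7 CPM, its 4-cell edited libraries at 0 and 0.643, its 8-cell controls at 4.09 and 10.7 and its 8-cell edited libraries at 6.69 and 5.15. It was thus near absence in 4-cell edited embryos alone. The difference was 4.44, with a 95% interval from 3.13 to 5.76 (adjusted p = 0.00681 in limma and 0.0655 in edgeR), and at such low levels a fitted value depends on the added 1 CPM.

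CLU, the gene of the secreted chaperone clusterin, was lower at 8 cells in controls, with 192 and 249 CPM in 4-cell and 86.2 and 109 in 8-cell libraries. It was higher at 8 cells in edited embryos, with 34.1 and 42.6 at 4 cells and 89.0 and 91.0 at 8 cells. The 8-cell groups overlapped and the 4-cell groups did not. The difference was 2.38 (SE 0.340, adjusted p = 0.00681 in limma and 0.0497 in edgeR).

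Genes of RNA polymerase II and its elongation factors were found in this class. SUPT4H1 encodes a subunit of DSIF, which pauses the polymerase and then helps it elongate. It was at 124 and 200.5 CPM in 4-cell controls, 28.3 and 34.2 in 4-cell edited libraries, 121 and 122 in 8-cell controls and 129 and 200.3 in 8-cell edited libraries. One group, the 4-cell edited embryos, stood apart from the other three. The difference was 2.70 (SE 0.389, adjusted p = 0.00681 in limma and 0.0497 in edgeR). POLR2C, a polymerase subunit, had effects of -1.40 and 0.15 and a difference of 1.56, and POLR2E, another subunit, had effects of -2.40 and -0.67 and a difference of 1.73.

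NT5DC2 was at 146 and 117 CPM in 4-cell controls and at 18.9 and 12.8 in 4-cell edited libraries. At 8 cells it was at 47.3 and 51.4 in controls and 35.1 and 31.0 in edited libraries, so that the groups stayed apart with a gap of -0.57 that did not pass the test. The difference was 2.42 (adjusted p = 0.011 in limma). A secretory gene pair belonged to the same class: LRPAP1, a chaperone of LDL receptor family proteins, had effects of -3.78 and -0.87, and ADISSP, which encodes a secreted signalling protein of fat tissue, had effects of -1.97 and 0.11.

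Genes called at the 8-cell stage only were few: 8 were higher in edited embryos (0.066% of the genes tested) and 15 were lower (0.124%). All 8 had estimated effects of opposite sign at the 2 stages, with a median 4-cell effect of -0.56. In 6 of the 8 the 4-cell libraries of the 2 conditions did not overlap, against 71% of all genes tested. ID3, an inhibitor of basic helix-loop-helix transcription factors, was the most abundant of the 8. Its 8-cell edited libraries held 3495 and 2906 CPM, against 1035 and 1642 in 8-cell controls, 1246 and 1020 in 4-cell edited libraries and 2031 and 1384 in 4-cell controls. The 8-cell edited embryos stood above every other library. The effects were -0.57 and 1.29, with a difference of 1.86 (SE 0.367, adjusted p = 0.0219 in limma).

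CCL25, a chemokine gene, showed the same layout with no gap at 4 cells. It was at 180 and 132 CPM in 4-cell controls, 133 and 163 in 4-cell edited libraries and 166 and 147 in 8-cell controls, and at 367 and 341 in 8-cell edited libraries. The difference was 1.24 (adjusted p = 0.0418 in limma, 0.124 in edgeR). SMOC1, a secreted regulator of BMP signalling, had a difference of 1.82, and TAC3, the gene of the neurokinin B precursor, had one of 1.78.

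LOXL4, a lysyl oxidase family gene, led the named genes among the 15 that were lower at the 8-cell stage only. It stood at 20.0 and 24.5 CPM in 4-cell controls and at 22.9 and 18.5 in 4-cell edited libraries, which overlapped, and at 46.3 and 21.8 in 8-cell controls. The 8-cell edited libraries held 1.31 and 3.38. The effects were -0.10 and -3.37, a difference of -3.27 (SE 0.564, adjusted p = 0.0149 in limma and 0.0628 in edgeR).

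APC, a scaffold of the complex that marks beta-catenin for destruction, was at 31.4 and 41.0 CPM in 4-cell controls, 35.3 and 33.3 in 4-cell edited libraries, 37.1 and 40.6 in 8-cell controls and 7.29 and 11.3 in 8-cell edited libraries. Only the 8-cell edited embryos were low. The difference was -1.92 (adjusted p = 0.0298 in limma). CDV3 had a difference of -2.23, and NGDN, the gene of neuroguidin, one of -1.87. The most negative difference of all, -3.69, belonged to the unnamed entry LOC132344361, which is given here because of its value: it was at 5.47 and 5.54 CPM in 8-cell edited libraries and at 16.6 or more in every other library.

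Called effects of opposite sign were found for 5 genes that were higher at 4 cells and lower at 8 cells (0.0412% of the genes tested) and for 6 genes that were lower and then higher (0.0495%). UTP23, a factor in the assembly of the small ribosomal subunit, had the smallest p of the first kind. Its levels were 205 and 181 CPM in 4-cell controls, 602 and 464 in 4-cell edited libraries, 383 and 379 in 8-cell controls and 255 and 233 in 8-cell edited libraries. The groups did not overlap at either stage and their order turned over. The effects were 1.45 and -0.64, the second with an adjusted p of 0.0496, and the difference was -2.09 (SE 0.298, adjusted p = 0.00681 in limma and 0.0497 in edgeR).

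CETN3, the gene of a centrin of the centrosome, had effects of 1.30 and -1.46 and the largest turn of these 5 genes, -2.75 (adjusted p = 0.0206 in limma). Its 4-cell libraries were at 296 and 419 CPM in controls and 1029 and 729 in edited embryos, and its 8-cell libraries at 833 and 661 in controls and 154 and 471 in edited embryos. The 8-cell edited libraries differed widely from each other, and both lay below the controls. The other 3 were AHCTF1 and RANBP2, both genes of nuclear pore proteins, and BDP1, a subunit of the RNA polymerase III factor TFIIIB, with differences of -2.41, -1.63 and -1.66.

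CLK3, a kinase of SR splicing factors, led the genes that were lower and then higher. It stood at 147 and 145 CPM in 4-cell controls and 72.9 and 66.6 in 4-cell edited libraries, then at 123 and 111 in 8-cell controls and 190 and 217 in 8-cell edited libraries. The groups were apart at both stages. The effects were -1.06 and 0.79, a difference of 1.85 (SE 0.303, adjusted p = 0.0117 in limma and 0.0628 in edgeR).

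RASL11A, a small GTPase gene of the RAS superfamily, was at 210 and 121 CPM in 4-cell controls and 89.4 and 85.3 in 4-cell edited libraries, and at 96.1 and 120 in 8-cell controls and 340 and 243 in 8-cell edited libraries. Its difference was the largest of these 6 genes, 2.28 (adjusted p = 0.0127 in limma). SELENBP1, a selenium-binding protein gene, turned by 1.94, HEY1, a transcriptional repressor downstream of Notch, by 1.83, TMEM150A by 1.61 and HARBI1 by 1.49. For all 6 the highest group was the 8-cell edited embryos.

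FTL, the gene of ferritin light chain, is added for its abundance and was chosen after its values were seen. It was at 4362 and 3200 CPM in 4-cell controls, 1565 and 1646 in 4-cell edited libraries, 2135 and 2904 in 8-cell controls and 4587 and 3387 in 8-cell edited libraries. Its effects had opposite signs, -1.22 and 0.66, but the 8-cell effect did not pass the test. It thus counts among the genes called at the 4-cell stage only. RSBN1L and TRAPPC8 were placed there in the same way, with effects of 0.83 and -0.90 and of 1.15 and -0.82.

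**Figure D3:**
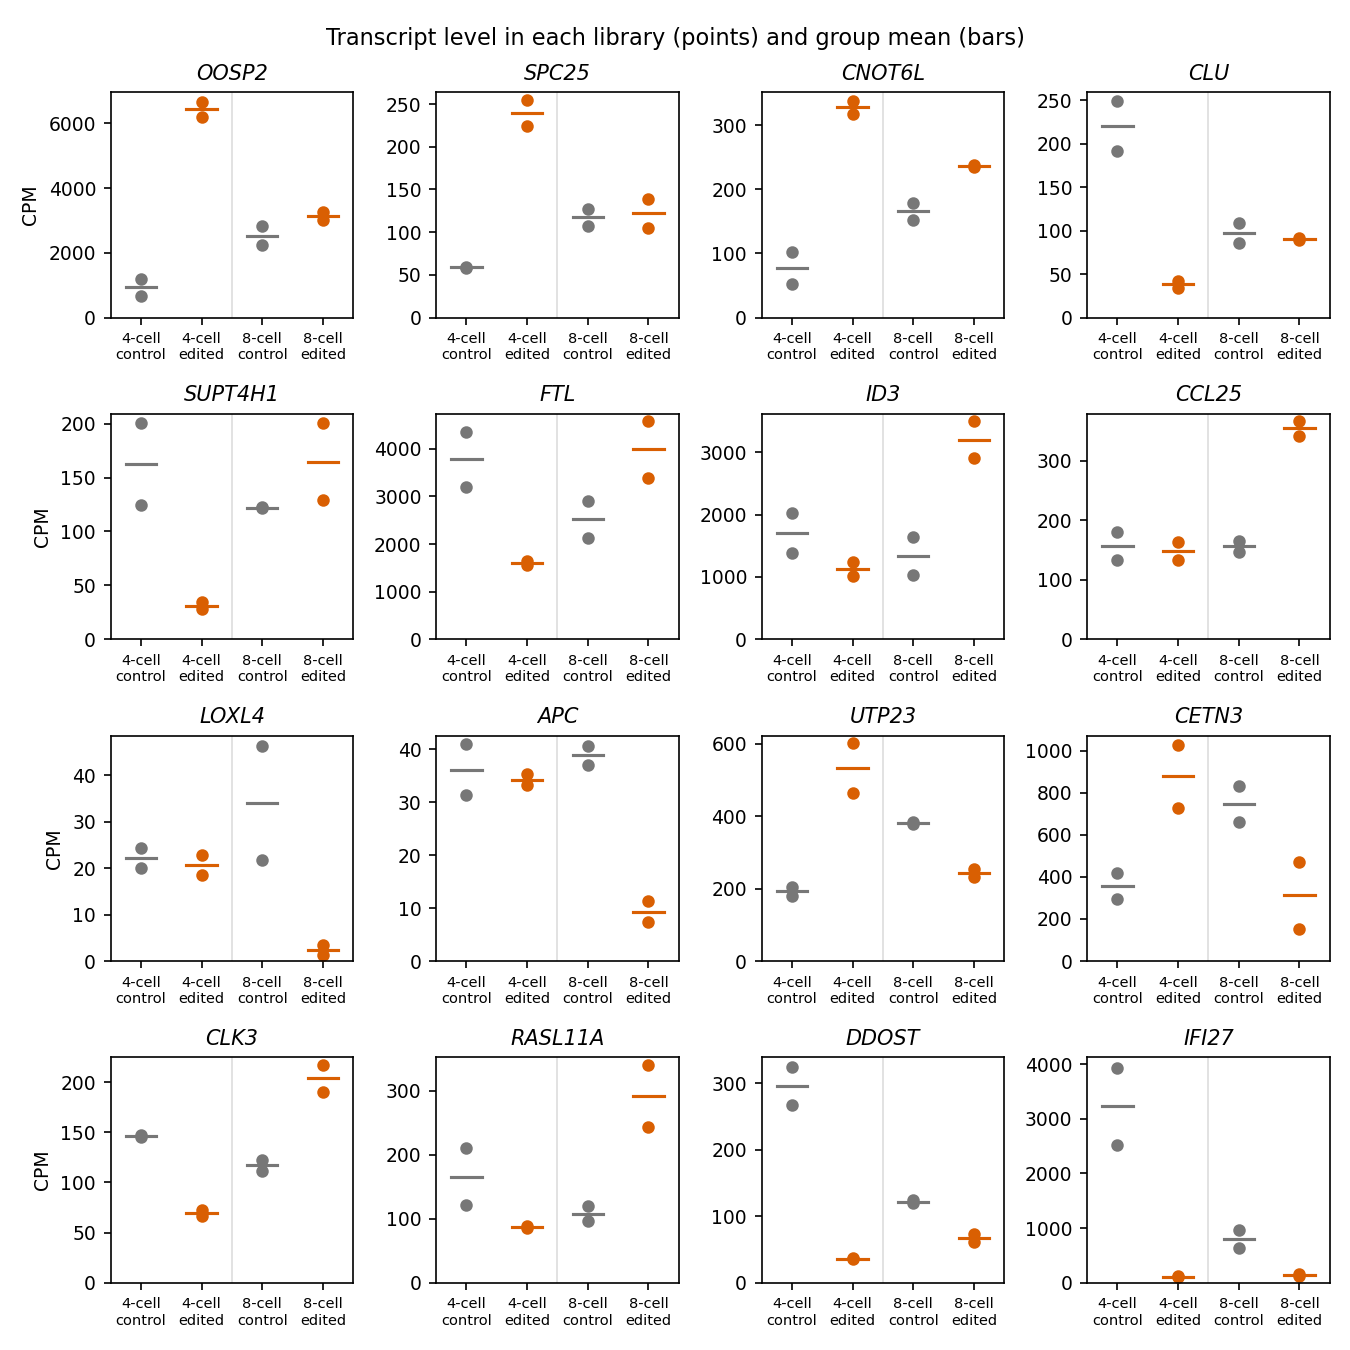
Level in CPM (vertical axes, each from 0) of 16 genes with a called difference, in each of the 8 libraries (points) with group means (bars), controls in grey and edited embryos in orange. OOSP2, SPC25, CNOT6L, CLU, SUPT4H1 and FTL differ most at 4 cells, and ID3, CCL25, LOXL4 and APC differ most at 8 cells. UTP23, CETN3, CLK3 and RASL11A turn over, while DDOST and IFI27 are lower in edited embryos at both stages.

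The 65 genes that were lower in edited embryos at both stages (0.536% of the genes tested) had a median effect of -3.02 at 4 cells and of -1.36 at 8 cells. In all 65 the 4-cell controls were the highest group, a layout that the choice of genes by their calls favours. DDOST, a subunit of the oligosaccharyltransferase that adds glycans to proteins in the endoplasmic reticulum, was at 325 and 268 CPM in 4-cell controls and 36.9 and 35.7 in 4-cell edited libraries, then at 120 and 124 in 8-cell controls and 61.9 and 73.4 in 8-cell edited libraries. Its difference was 2.14 (SE 0.318, adjusted p = 0.00847 in limma and 0.0497 in edgeR).

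IFI27, an interferon-induced gene, was at 3934 and 2518 CPM in 4-cell controls and 98.7 and 124 in 4-cell edited libraries, and at 638 and 966 in 8-cell controls and 168 and 132 in 8-cell edited libraries. Edited libraries were alike at both stages, while controls were lower at 8 cells. The difference was 2.42 (adjusted p = 0.00989 in limma). BSG, the gene of the surface glycoprotein basigin, had effects of -3.15 and -1.11, and ATP6V0D1, a subunit of the lysosomal proton pump, had effects of -3.15 and -0.97.

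In 5 of the 65 genes the effect was larger at 8 cells, and they are named for this after their values were seen: THBS1, the gene of thrombospondin 1, PLOD2, a collagen lysyl hydroxylase, IFI44L, an interferon-stimulated gene, RPL22L1, a paralog of the ribosomal protein gene RPL22, and the entry LOC100139670. THBS1 had effects of -1.73 and -3.23, IFI44L of -1.46 and -3.11 and RPL22L1 of -1.20 and -2.69, and the difference for PLOD2 was -2.15. Of 43 interferon-stimulated genes tested, IFI27 and IFI44L were called (4.65%, against 3.96% of all genes tested).

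Gene groups were described by the number of members with a called difference and by the median difference, beside 3.96% called and a median of -0.02 over all genes tested. Of these lists, the glycolytic enzymes had the largest median difference. All 16 tested had a positive difference, 4 of them passed the test (PGAM1, ALDOC, GAPDH and GPI), and the median effect was -2.64 at 4 cells and -1.46 at 8 cells, with a median difference of 1.16. GAPDH was at 4058 and 4177 CPM in 4-cell controls, 399 and 527 in 4-cell edited libraries, 1091 and 2505 in 8-cell controls and 727 and 505 in 8-cell edited libraries. Its effects were -3.16 and -1.45 and its difference 1.72 (adjusted p = 0.0416 in limma, 0.122 in edgeR). The median difference of the list lay between 0.77 and 1.68 when 1 library at a time was left out.

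Subunits of mitochondrial ribosomes and proteasomes had more negative median effects at 4 cells than at 8 cells. Of 75 mitochondrial ribosomal protein genes, 6 had a called positive difference and 0 a negative one, with a median effect of -1.16 at 4 cells, -0.58 at 8 cells and a median difference of 0.58. MRPL15, a protein of the large mitochondrial subunit, had effects of -1.14 and 0.39, and MRPL49 of -2.31 and -0.50. Of 36 proteasome subunits, PSMC3 and PSMC4, both ATPases of the regulatory particle, had called positive differences of 1.63 and 1.38, and the median over the list was 0.58. The 55 actin and thymosin genes held 6 positive calls and 1 negative call at a median of 0.43. ACTB, the gene of beta-actin, had effects of -3.29 and -1.54, ARPC1B, a subunit of the ARP2/3 complex, had effects of -2.22 and 0.18, and the negative call was RDX, the gene of radixin, at 1.83 and 0.38.

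Translation and ribosome assembly showed calls in both directions. Of 59 translation factors, 6 had a called positive difference and 1 a called negative one, while 32 estimates were above 0 and 27 below, at a median of 0.08. EIF3L, a subunit of the initiation factor eIF3, had effects of -1.62 and -0.19, whereas EIF5B, which joins the ribosomal subunits, had effects of 1.25 and -0.09. Of 78 nucleolar assembly factors, 5 were called positive (GRWD1, DDX47, IMP3, IMP4 and DDX56) and 3 called negative (UTP23, HEATR1 and UTP20). There were 39 estimates on each side of 0. The median was 0.02 in the reported fit, and it ranged from -0.08 to 0.02 under other scalings and count models. GRWD1, a histone-binding factor of ribosome assembly, went from -2.46 to -0.03. The 92 genes of the RNA polymerase II machinery held 5 positive calls and 3 negative ones, the latter in GTF2A1, TAF5 and GTF2A2, all general initiation factors, and GTF2A1 had effects of 2.10 and 0.46. The median of that list was -0.10.

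Cytosolic ribosomal proteins, the group of RPL12, had 0 called differences in limma. Of 45 large-subunit genes, 5 had an unadjusted p under 0.05, and edgeR and DESeq2 called 0. Of 31 small-subunit genes, 5 had an unadjusted p under 0.05, edgeR called 0 and DESeq2 called 1. Over all genes tested, 2800 of 12129 had an unadjusted p under 0.05 in limma. The median effect was -1.78 at 4 cells and -1.85 at 8 cells for the large subunit, and -1.53 at both stages for the small subunit. Single differences reached from -0.83 to 1.04 in the large subunit. Oxidative phosphorylation subunits, at -1.84 and -1.57, had 3 positive calls among 79.

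Transcripts of oocyte origin and of maternal RNA turnover were called at about the share of all genes tested. Of 44 oocyte-specific transcripts, OOSP2 and NLRP13 had called negative differences (4.55%), and the median was -0.15, which lay between -0.32 and 0.07 when 1 library at a time was left out. GDF9 and BMP15, growth factors secreted by the oocyte, had differences of 0.04 and -0.13 that did not pass the test. Of 47 maternal RNA turnover factors, 2 were called (4.26%), CNOT6L and CNOT6, and the median was 0.60 at 4 cells, 0.20 at 8 cells and -0.44 for the difference.

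The m6A machinery, which writes, reads or erases N6-methyladenosine on RNA, had 0 of 25 genes called in limma, and 0 called in edgeR and in DESeq2. An unadjusted p under 0.05 in limma was found for 9 of the 25, against 2800 of the 12129 genes tested. The median effect of the list was 0.49 at 4 cells and -0.09 at 8 cells. The median difference of -0.58 stayed below 0 when each library was left out, between -0.67 and -0.31. Single differences ran from -1.42 for YTHDC1, a nuclear reader, to 0.92 for METTL3, the catalytic subunit of the writer. Neither passed the test, with adjusted p-values of 0.0879 and 0.215 in limma. Of 85 cell cycle regulators, 5 had called negative differences (CENPE, CENPF, TTK, CKS2 and FBXO5) and 2 called positive ones (ANAPC11 and UBE2S, both acting with the anaphase-promoting complex). Over the whole list 45 estimates were below 0 and 40 above. Of 81 histone-modifying enzymes, SUZ12 and PCGF6, both polycomb proteins, had called differences of -1.62 and -1.36.

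Among 35 p53 targets, 2 passed the test with a negative difference and 1 with a positive one, while 18 estimates were above 0 and 17 below. The median was 0.25 in the reported fit, and it ranged from -0.13 to 0.24 under other scalings and count models. TP53INP1, a p53-induced regulator of cell death and autophagy, was at 72.0 and 88.3 CPM in 4-cell controls and 315 and 296 in 4-cell edited libraries, and at 140 and 158 in 8-cell controls and 193.2 and 192.8 in 8-cell edited libraries. Its difference was -1.55 (adjusted p = 0.0219 in limma). Genes of embryonic genome activation held 1 call among 23, EIF1AD, at a median of 0.18. Splicing factors held 3 positive calls and 1 negative call among 86, chaperones 1 of each among 44, and numbered zinc finger genes 1 of each among 216.

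**Figure D4:**
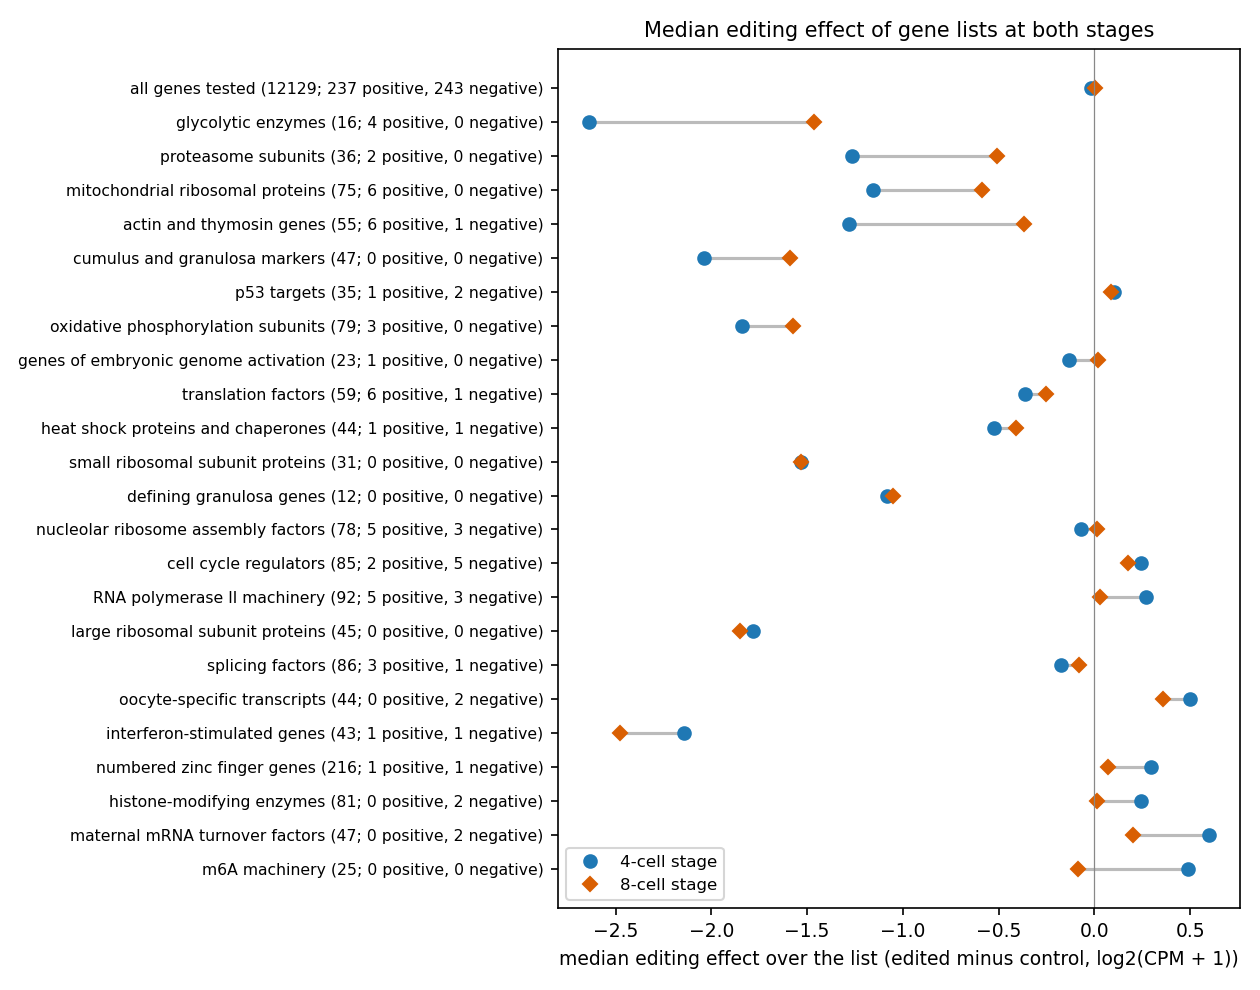
Median editing effect (edited minus control, log2(CPM + 1), horizontal axis) of each gene list at the 4-cell stage (circles) and the 8-cell stage (diamonds), with the number of genes tested and of called positive and negative differences beside each name. The longest line belongs to the glycolytic enzymes, from -2.64 to -1.46, and the ribosomal subunits have nearly the same median at both stages.

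The full list of cumulus and granulosa markers summed to less in edited than in control libraries at both stages. The defining granulosa genes did so at 4 cells, while their sums overlapped at 8 cells. The 51 cumulus and granulosa markers in the table summed to 22106 and 21453 CPM in 4-cell controls and 4105 and 5639 in 4-cell edited libraries, and to 10615 and 12889 in 8-cell controls and 2530 and 3023 in 8-cell edited libraries. Their sum was highest in 4-cell controls. The 44 oocyte-specific transcripts summed to 30854 and 37520 CPM in 4-cell controls and to between 50358 and 71131 in the other 6 libraries. The 15 defining granulosa genes summed to 732 and 777 CPM in 4-cell controls, 283 and 304 in 4-cell edited libraries, 316 and 581 in 8-cell controls and 336 and 339 in 8-cell edited libraries, and at most 2 of the 15 were at 0 in a library. Those listed at 0 in some libraries were AMHR2, FOXL2 and TNFAIP6. STAR and HAS2, which made up most of the sum in edited libraries, were present in every library. HAS2 stood higher in edited libraries at both stages, at 4 cells with 132 and 124 CPM against 24.3 and 55.4 in controls.

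None of the 47 markers tested had a called difference in limma. An unadjusted p under 0.05 in limma was found for 11 of them, against 2800 of the 12129 genes tested. In edgeR 0 were called, and DESeq2 called 2 positive and 2 negative among 51. The median effect of the markers was -2.04 at 4 cells and -1.59 at 8 cells. Of 12 defining granulosa genes tested, 6 had an estimated difference above 0 and 6 below, at a median of 0.03. At 4 cells 2 of these 12 were called higher and 7 lower in edited embryos. CYP11A1, the first enzyme of steroid synthesis, was at 227 and 201 CPM in 4-cell controls and 3.33 and 14.5 in 4-cell edited libraries, and at 29.1 and 133 in 8-cell controls and 12.7 and 4.97 in 8-cell edited libraries. With the log2 summed marker level as a covariate, limma called 113 genes, of which 111 were among the 480, and 0 editing effects at either single stage. On the log2 scale that level was lower in edited libraries by similar amounts at both stages. The fit could thus hardly tell it from editing at a single stage, and it adjusted the difference of effects very little. The part of somatic RNA in the single differences was not tested. Of the sperm transcripts, 0 of 4 tested were called by limma, 0 had an unadjusted p under 0.05, and edgeR and DESeq2 called 0.

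**Figure D5:**
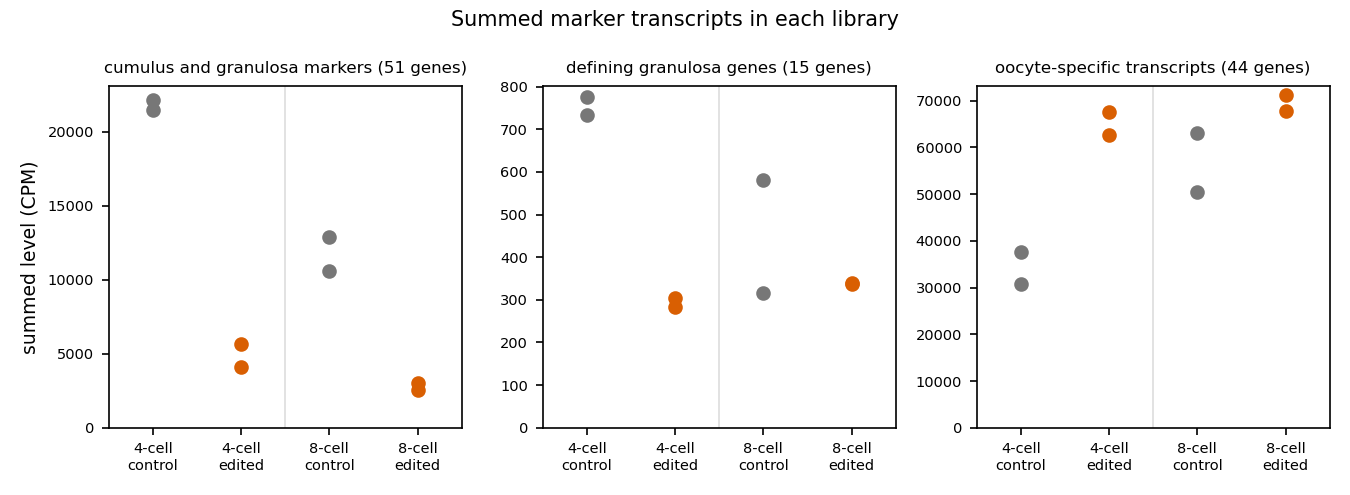
Summed level in CPM (vertical axes, each from 0) of cumulus and granulosa markers, defining granulosa genes and oocyte-specific transcripts in each of the 8 libraries (points), controls in grey and edited embryos in orange. The 4-cell controls, at 22106 and 21453 CPM for the first list, are highest in somatic markers and lowest in oocyte transcripts.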

How the data were processed

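Per the submitters' processing notes, Trim Galore 0.6.7, HISAT2 2.2.1 and featureCounts 2.0.1 were used, and the genome build and annotation are not given in the sources used here. The deposited values are CPM, not raw read counts: in each of the 8 columns used, 100% of the positive values were whole multiples of 1 read within 0.05 reads, and these reads were recovered for the count tests. Another 4 of the 12 columns matched no sample and were not used. With 33527531 to 35122409 reads per library, 3 reads correspond to 0.0858 to 0.0899 CPM, which covers counting error only.

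limma 3.58.1 (R 4.3.3, intensity trend, 1 mean per group) was fitted to log2(CPM + 1) for genes that averaged 1 CPM or more, with Benjamini-Hochberg adjustment over all of them, two-sided, at 0.05. A fold change on this scale understates that of low genes. edgeR 4.0.16, which called 18 genes on the recovered reads, and DESeq2 1.42.0 were alternatives, as were other filters, pseudocounts, scalings, a replicate block, a marker covariate and the removal of each library. The limma test of the difference was run on simulated counts, and the other fits were not.

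Classes follow the calls at each stage. Genes were named by rule: RPL12, the 4 smallest p-values per class among genes averaging 10 CPM or more, up to 4 genes with the largest opposite estimates in each order, those called by edgeR too, and up to 3 called members per list. Some genes, such as GDF9, BMP15, YTHDC1 and METTL3, were named outside this rule. The question, the lists and this rule were chosen with earlier results of these data known. Lists received no test.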

Additional observations from a re-analysis of the deposited data

Results flagged for a closer look

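By the test of the difference itself in limma, 480 genes had unequal editing effects at the stages. Of these, 11 genes were called at both stages in opposite directions. UTP23, CETN3, AHCTF1, RANBP2 and BDP1 were higher and then lower in edited embryos, and CLK3, SELENBP1, RASL11A, TMEM150A, HEY1 and HARBI1 were lower and then higher. The 8-cell effects of UTP23, AHCTF1 and RANBP2 passed narrowly, with adjusted p-values of 0.0496, 0.0487 and 0.0482 in limma. Those of CETN3, CLK3, SELENBP1, RASL11A, TMEM150A and HEY1 were 0.0171 or less. Under edgeR, 0 genes fell in this class.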

How the results depend on the processing

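The count of 480 genes (237 positive, 243 negative, 381 at 4 cells only, 23 at 8 cells only, 11 opposite, 65 lower at both) was 18 (6, 12, 15, 1, 0, 2) in edgeR, 22 (10, 12, 16, 1, 2, 3) in edgeR on the same genes, 1035 (544, 491, 790, 70, 11, 138) in DESeq2 and 299 (137, 162, 251, 15, 7, 26) in limma-voom. It was 0 in every class without a filter on low values (2993 genes at an unadjusted p under 0.05) and without the intensity trend (2578). It was 455 to 593 with other pseudocounts, a minimum mean of 5 CPM, median centring or quantile normalization, with 35 genes at 8 cells only under median centring. The cause was not tested. With the marker covariate it was 113 (61, 52 and 0 in each class), since 0 effects were then called at a single stage. Median centring and quantile normalization moved the median effect of all genes to 0.22 and 0.23 at 4 cells and to 0.23 and 0.20 at 8 cells.

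Leaving out 1 library at a time gave 0 to 1397 genes (0 to 466 positive, 0 to 931 negative, 0 to 1104 at 4 cells only, 0 to 64 at 8 cells only, 0 to 23 opposite, 0 to 151 lower at both), and 3712 to 5389 and 1024 to 2060 genes for the effect at 4 and 8 cells. The replicate numbers were not shown to pair libraries: same-numbered libraries correlated at -0.302 between the control groups and at -0.086 to 0.108 elsewhere. The replicate block called 386 genes, 7 of them opposite. With the numbers of the 8-cell controls crossed, an alternative chosen after seeing the data like limma-voom and edgeR on the same genes, it called 864 (426, 438, 678, 42, 21, 115). Of 1737 values of named genes under the alternatives, 988 kept their side of the threshold and 749 no longer passed it, with 0 reversed. With 2 libraries a group, the median SE of a difference was 0.491, and the smallest called difference was 1.07.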

Other observations

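Several gene families not described above as lists had calls almost entirely in 1 direction. Some of their members, such as SPC25, CENPE, AHCTF1, RANBP2 and DDOST, were named above, and SEC13 is in both the nuclear pore and the secretory list. The lists of these families were drawn up after the called genes had been seen, so the counts are a description and support nothing. Of 25 cohesin and SMC genes, which hold and fold chromosomes, 7 had a called negative difference (SMC1B, RAD21, PDS5B, SMC3, NIPBL, SMC6 and WAPL) and 0 a positive one in limma, against 3.96% of all genes called in either direction. The median effect of the list was 1.02 at 4 cells and -0.08 at 8 cells. RAD21, the cleavable cohesin subunit, was at 53.3 and 101 CPM in 4-cell controls, 221 and 248 in 4-cell edited libraries, 148 and 104 in 8-cell controls and 97.8 and 107 in 8-cell edited libraries. SMC1B, the meiotic cohesin subunit, was at 173 and 179 CPM in 4-cell controls, 525 and 649 in 4-cell edited libraries and between 229 and 317 in all 8-cell libraries.

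Of 36 genes named CEP for centrosomal proteins, 7 were called negative, with a median difference of -0.78, and CEP290, a ciliary transition zone protein, went from 1.69 to -0.15. Of 37 kinetochore genes, 8 were called negative at a median of -0.55, KNL1 among them with a difference of -2.13. Kinesins held 4 negative calls among 31 and golgins 4 among 14. Nuclear pore genes had 4 negative calls and 1 positive call among 29. The secretory pathway went the other way, with 13 positive calls and 1 negative call among 65 genes and a median of 0.42. SCAMP3, a secretory carrier membrane protein, had a difference of 1.89, TMED3, a cargo receptor of early transport vesicles, one of 1.78 and the negative call, SEC63 of the translocation machinery, one of -1.58.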
